A study of Mus musculus with 16 samples.

Results

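Tbx21, Eomes, Prdm1, Id2, Zeb2, Tox, Batf and Bhlhe40 are genes for transcription factors of effector and exhausted lymphocytes. They were chosen by symbol, with earlier results of these data known, and all 8 were found among the 24469 gene symbols of the deposited tables. The study grew MC38 tumors, a mouse colon carcinoma line, under the skin of C57BL/6 mice and profiled single cells from tumors and spleens collected on day 19 after implantation. Mice were 8-week-old female littermates that were wild type (Aire+/+) or lacked the thymic autoimmune regulator in the germline (Aire-/-). Each genotype received an antibody that blocks PD1 (anti-PD1) or an isotype control antibody. Cells of several mice per condition were pooled and sorted for CD45+ or CD8+ cells, which gave 16 libraries, 1 for each combination of genotype, treatment, tissue and sort. No condition had a replicate library, so a difference between conditions and a difference between libraries cannot be told apart. Sets of 4 values are printed in a fixed order, wild type with isotype and with anti-PD1 before Aire-/- with isotype and with anti-PD1.

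T-bet, the product of Tbx21, and its T-box relative Eomes drive cytotoxic programs in CD8 T cells and natural killer (NK) cells. Blimp-1 (Prdm1), Id2 and Zeb2 push activated CD8 T cells toward terminal effector states, while Tox, BATF and Bhlhe40 are tied to the response to lasting antigen, AP-1 driven transcription and tissue-adapted metabolism. In chronically stimulated T cells of tumors, Tcf7 marks self-renewing precursors and Havcr2 marks their terminally exhausted descendants.

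Aire itself was close to absent, so its UMIs alone could not check the genotype labels. In the tumor CD45 sort, the libraries held 0, 2, 1 and 0 UMIs (unique molecular identifiers, each a counted transcript molecule) of Aire. The tumor CD8 sort held 6, 3, 1 and 0, the splenic CD45 sort held 2, 5, 4 and 0, and the splenic CD8 sort held 0, 0, 0 and 0. A few Aire UMIs were thus counted in libraries of either genotype. Depth was given by the UMIs of cells that passed quality filters. In the tumor these were 38930017, 28760714, 24639370 and 23282799 for the CD45 sort, against 35163274, 27052444, 22414023 and 23271160 for the CD8 sort. In the spleen they were 12131827, 10927391, 11179227 and 12618095 for the CD45 sort, against 20126140, 19167788, 15590029 and 16279427 for the CD8 sort. Tumor libraries were thus the deeper ones. Any pair of libraries shared at most 18 cell barcodes, no more than 0.879% of the smaller library.

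CD8 T cells were gated on UMIs of Cd3 and Cd8 genes, with 0 UMIs of Cd4, Ncr1, Cd79a and Csf1r. The CD8 sort gave 2489, 2114, 1769 and 2143 such cells in the tumor and 2777, 2817, 2269 and 2514 in the spleen. In the CD45 sort there were 116, 197, 195 and 689 in the tumor, with the most under anti-PD1 in Aire-/- mice, and 133, 143, 148 and 174 in the spleen. NK cells, which may hold type 1 innate lymphoid cells that these markers do not tell apart, were gated on Ncr1 and Klrb1c with 0 UMIs of Cd3d, Cd3e and Cd8b1. The CD45 sort held 97, 129, 146 and 242 NK cells in the tumor and 78, 47, 54 and 52 in the spleen, and no library of the CD8 sort held more than 1. Summed NK markers (Ncr1, Klrb1c, Klra8) reached 3686, 3229.5, 3644 and 3997 CPM, the usual scale of a gene's UMIs over all UMIs of its gated population, in splenic NK cells and 912, 815, 909 and 869 in tumor NK cells. Ncr1 and Klrb1c are gating genes, and with 3958, 4454, 5128 and 4431 UMIs per NK cell in the spleen against 14485, 13612, 12586 and 13583 in the tumor, the gate sets a higher lowest CPM in the spleen. Klra8, an activating receptor outside the gate, was 606, 387, 614 and 759.5 CPM in the spleen and 71.2, 80.9, 109 and 118 in the tumor, higher in the spleen in 4 of 4 conditions.

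Markers of other cell types left small traces in the gated CD8 T cells. In the tumor CD8 sort, 6 of 7 macrophage genes had UMIs, with a summed level of 12.9, 24.1, 30.2 and 41.1 CPM, C1qb the most abundant and the gated Csf1r at 0. This sum was lowest under isotype in Aire+/+ mice and highest under anti-PD1 in Aire-/- mice. Tumor macrophages of the CD45 sort themselves held 16351, 18311, 14909 and 13603 CPM. In the splenic CD8 sort the macrophage sum was 2.22, 1.93, 1.79 and 2.26 CPM. Of 4 B cell genes, at most 2 had UMIs, with sums of 24.9, 23.8, 26.5 and 27.9 CPM in the spleen and 3.33, 3.05, 2.56 and 4.06 in the tumor, nearly all from Cd79b, with Cd79a at 0. Splenic B cells held 7668, 8013, 8145 and 8333 CPM of these genes. Dendritic cell genes (Xcr1, Clec9a, Flt3, Fscn1) summed to 5.35, 5.78, 6.31 and 0.892 CPM in the tumor, led by Fscn1, and to 3.60, 2.75, 2.39 and 1.42 in the spleen. The CD4 and regulatory T cell list reached 127, 124, 124 and 106 CPM in the tumor, nearly all from the receptor gene Il2ra, and 5.77, 3.19, 2.85 and 4.27 in the spleen, with Cd4 at 0. Neutrophil genes were at or near 0, and red cell genes stood out in a single splenic library, with sums of 201, 0.770, 1.53 and 2.26 CPM. The part of these markers in the results that follow was not tested.

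Tumor CD8 T cells of the CD8 sort had more Tbx21, Prdm1, Id2, Zeb2, Batf and Bhlhe40 than splenic CD8 T cells, and less Eomes and Tox. Of the 8 factors, 6 passed the test as higher in the tumor and 2 as lower. Among all 11335 genes tested, 37.8% were called higher and 39.8% lower, so a call of some kind was common. The median log2 difference of the factors was 2.16, against -0.03 over all genes. Calls used the edgeR quasi-likelihood (QL) test at a Benjamini-Hochberg (BH) adjusted p under 0.05, and since each condition had 1 library per tissue, p measures how constant the tissue difference was over the 4 conditions.

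Tbx21, the T-box activator of Ifng and cytotoxic genes, stood at 125, 160.3, 132 and 139 CPM in tumor CD8 T cells and 21.0, 18.4, 42.5 and 34.3 in splenic ones. Every tumor library was above every splenic library, and the splenic values were higher in Aire-/- mice than in Aire+/+ mice. Tbx21 was higher in the tumor in 4 of 4 conditions (log2 difference 2.24, SE 0.272, edgeR QL, BH adjusted p = 0.00191). Eomes, which supports memory CD8 T cells and NK maturation, ran the other way, with 24, 13.8, 18.7 and 17.9 CPM in the tumor and 41.8, 37.3, 55.4 and 66.8 in the spleen. The groups did not overlap, and the lowest tumor value was that of anti-PD1 in Aire+/+ mice. Eomes was lower in the tumor in 4 of 4 conditions (log2 difference -1.5, SE 0.181, edgeR QL, BH adjusted p = 0.000704).

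Prdm1, which encodes the repressor Blimp-1 of terminal differentiation, measured 23.6, 25.6, 19.1 and 17.2 CPM in the tumor and 1.01, 1.43, 2.85 and 1.55 in the spleen, where the counts were 19, 26, 43 and 24 UMIs. All tumor values were above all splenic values, the latter from few UMIs. Prdm1 was higher in 4 of 4 conditions (log2 difference 3.59, SE 0.260, edgeR QL, BH adjusted p = 2.89e-05). Id2, an inhibitor of E-protein DNA binding needed by effector CD8 T cells and NK cells, reached 782, 896, 733 and 778 CPM in the tumor and 100.3, 94.9, 146 and 145 in the spleen. Tumor libraries were all higher, and the Aire-/- spleens were above the Aire+/+ spleens. Id2 was higher in 4 of 4 conditions (log2 difference 2.66, SE 0.162, edgeR QL, BH adjusted p = 2.90e-05). Zeb2, a zinc-finger repressor that acts beside T-bet in terminal effectors, gave 27.3, 36.9, 30.7 and 30.8 CPM in the tumor and 4.66, 4.01, 15.3 and 6.46 in the spleen. The groups were apart, but the isotype-treated Aire-/- spleen stood well above the other spleens. Zeb2 was higher in 4 of 4 conditions (log2 difference 2.08, SE 0.390, edgeR QL, BH adjusted p = 0.00843). Without the Aire+/+ isotype libraries its difference was 1.96 and missed the threshold, with Zeb2 higher in 3 of 3 conditions.

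Tox, an HMG-box factor that installs the exhausted state, showed 34.7, 46.2, 23.0 and 38.9 CPM in the tumor and 43.7, 44.4, 38.7 and 39.6 in the spleen. The tumor values spread widely, the splenic values lay inside their range, and only under anti-PD1 in Aire+/+ mice was the tumor higher. Tox was lower in 3 of 4 conditions by a small margin (log2 difference -0.34, SE 0.126, edgeR QL, BH adjusted p = 0.0436). This call was lost with DESeq2 (-0.30). By edgeR quasi-likelihood it was also lost with library totals (-0.25), without the filter on low counts (-0.33), without a condition term (-0.31) and with stricter gates (-0.33). Leaving out the Aire+/+ isotype libraries gave -0.31, and leaving out the Aire-/- isotype libraries gave -0.20, neither past the threshold. Batf, an AP-1 family factor that pairs with Jun proteins and IRF4, gave 66.6, 82.2, 94.3 and 109 CPM in the tumor and 40.3, 35.6, 41.4 and 48.9 in the spleen. Each tumor value was above each splenic value. Batf was higher in 4 of 4 conditions (log2 difference 0.98, SE 0.0854, edgeR QL, BH adjusted p = 1.13e-05). Bhlhe40, a basic helix-loop-helix repressor active in tissue-resident and tumor-infiltrating T cells, rose from 4.76, 5.06, 11.8 and 12.1 CPM in the spleen to 911, 1104, 931 and 940.1 in the tumor. No splenic library came near the tumor libraries, of which anti-PD1 in Aire+/+ mice was the highest. Bhlhe40 was higher in 4 of 4 conditions (log2 difference 6.84, SE 0.365, edgeR QL, BH adjusted p = 0.000107), rank 119 from the top among the 11335 genes.

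**Figure D1:**
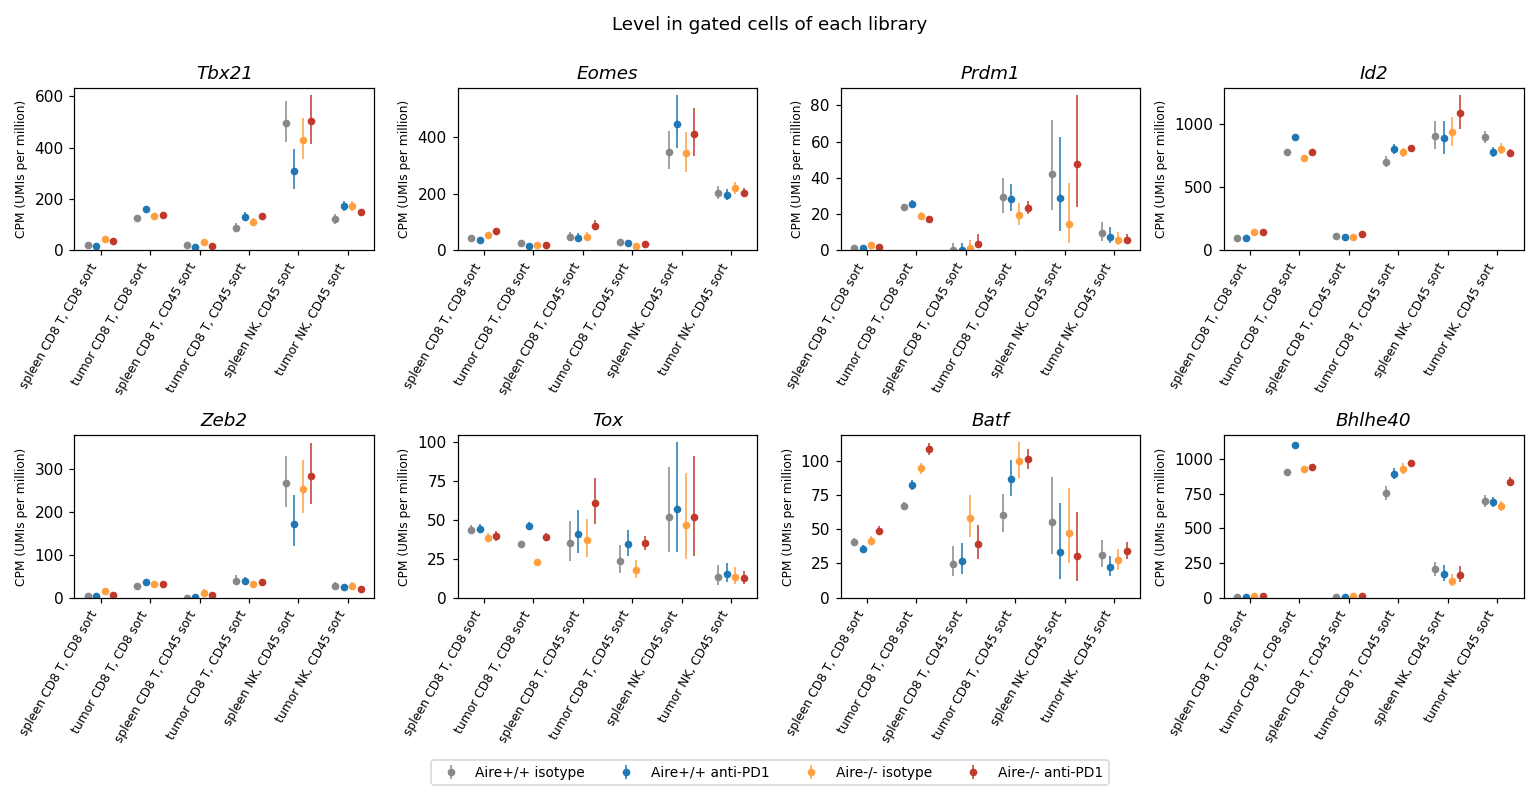
CPM of each factor (vertical axis) in gated CD8 T cells of the CD8 sort, CD8 T cells of the CD45 sort and NK cells of the CD45 sort, spleen and tumor, 1 point per library coloured by condition, with exact Poisson 95% bars for counting error. Tumor CD8 T cells sit far above splenic ones for Bhlhe40 and Id2 and below them for Eomes, while splenic NK cells lie above tumor NK cells for Tbx21, Eomes, Zeb2 and Tox.

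The CD45 sort, drawn from the same conditions, repeated the tissue contrast with fewer CD8 T cells. Again 6 of 8 factors were called higher in the tumor and 2 lower, where 27.8% and 28.2% of the 7670 genes tested were called. The factors had a median log2 difference of 2.53, against -0.04 over all genes. Tbx21 measured 88.1, 131, 111 and 134 CPM in the tumor and 20.3, 14.5, 32.0 and 17.9 in the spleen, without overlap (log2 difference 2.36, SE 0.175, edgeR QL, BH adjusted p = 1.28e-10, higher in 4 of 4 conditions). Eomes measured 27.5, 26.9, 14.6 and 20.6 CPM in the tumor and 48.6, 44.5, 48.0 and 86.7 in the spleen, without overlap and with the highest value under anti-PD1 in the Aire-/- spleen. It was lower in the tumor in 4 of 4 conditions (log2 difference -1.57, SE 0.208, edgeR QL, BH adjusted p = 7.51e-06). Prdm1 and Zeb2 were scarce in the spleen. Prdm1 had 0, 0, 1 and 4 UMIs in the spleens and 29.1, 28.4, 19.5 and 23.5 CPM in the tumors, all above the spleens (log2 difference 4.11, SE 0.441, edgeR QL, BH adjusted p = 1.26e-08, higher in 4 of 4 conditions). Zeb2 had 0, 1, 11 and 6 UMIs in the spleens and 39.3, 38.7, 31.4 and 36.4 CPM in the tumors, again without overlap (log2 difference 2.86, SE 0.469, edgeR QL, BH adjusted p = 0.000800, higher in 4 of 4 conditions). Prdm1 and Zeb2 passed the filter on low counts through the tumor cells alone, so their sizes and p rest on few splenic UMIs. The sizes of Prdm1 and Zeb2 moved with single conditions. Without the anti-PD1 Aire-/- libraries Prdm1 moved to 5.75, and without the isotype Aire-/- libraries Zeb2 moved to 3.84. DESeq2 gave 3.62 for Zeb2.

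Id2 in the CD45 sort was at 704, 805, 776 and 812 CPM in tumor CD8 T cells and 109.6, 101, 108 and 126 in splenic ones. Its groups lay far apart (log2 difference 2.70, SE 0.0895, edgeR QL, BH adjusted p = 1.99e-19, higher in 4 of 4 conditions). Tox stood at 23.6, 34.8, 17.7 and 35.2 CPM in the tumor and 35.0, 41.2, 37.0 and 60.8 in the spleen. Only the anti-PD1 Aire-/- tumor reached the range of the spleens, and Tox was lower in the tumor in 4 of 4 conditions (log2 difference -0.77, SE 0.159, edgeR QL, BH adjusted p = 0.000180). Batf was at 60.6, 86.7, 99.6 and 101 CPM in the tumor and 24.9, 26.7, 58.0 and 39.3 in the spleen. The groups did not overlap (log2 difference 1.14, SE 0.145, edgeR QL, BH adjusted p = 1.87e-07, higher in 4 of 4 conditions). Bhlhe40 was at 756, 896, 932 and 973 CPM in the tumor, while the spleens held 3, 4, 9 and 10 UMIs. Every tumor was far above every spleen (log2 difference 6.97, SE 0.145, edgeR QL, BH adjusted p = 1.02e-23, higher in 4 of 4 conditions). Bhlhe40, too, passed the filter on low counts through the tumor cells alone, so its size and p rest on few splenic UMIs. With each cell thinned to 2000 UMIs before gating, Tbx21 differed by 3.10 and Bhlhe40 by 6.27.

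Shares of cells with at least 1 UMI were also taken. After thinning each cell to 2000 UMIs, Bhlhe40 was seen in 70.8, 77.6, 72.0 and 73.3% of tumor CD8 T cells of the CD8 sort and in 1.08, 0.967, 2.40 and 2.2% of splenic ones. Unthinned shares were 90.2, 94.1, 90.6 and 92.8% and 1.98, 1.95, 5.20 and 4.65%. Most tumor cells and few splenic cells thus had a Bhlhe40 UMI. Tbx21 was seen in 20.5, 25.4, 23.0 and 23.9% of tumor cells and 3.13, 3.26, 6.61 and 5.41% of splenic cells after thinning. Without thinning the shares were 64.5, 69.3, 63.4 and 60.4% in the tumor and 8.93, 7.49, 14 and 12.1% in the spleen. Eomes, at 4.18, 2.55, 3.39 and 3.36% of thinned tumor cells and 5.76, 5.34, 7.45 and 8.89% of thinned splenic cells, was the less frequent in the tumor in 4 of 4 conditions. Unthinned, those shares were 13.9, 10.3, 11.1 and 9.94% and 15.3, 14.2, 20.3 and 20.6%. Tox was seen in 6.43, 7.81, 4.58 and 7.47% of thinned tumor cells and 8.43, 8.41, 7.58 and 7.41% of thinned splenic cells, and in 26.8, 29.2, 17.1 and 21.4% and 23.6, 22.5, 20.7 and 19.4% without thinning, so its unthinned share was higher in the tumor in 3 of 4 conditions although CPM was lower in 3 of 4.

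Cell types that should lack some of these factors were measured beside them, in libraries of the CD45 sort, since the CD8 sort held too few. Splenic B cells had thinned shares of 0.295 to 1.62% for Tbx21, 0 to 0.154% for Eomes and 0 to 0.307% for Tox. Tumor macrophages had 0 to 0.467% for Tbx21, 0 to 0.0876% for Eomes and a single Tox UMI among all their cells before thinning. CD8 T cells of the same CD45 libraries were above those ranges, with 2.03 to 2.88, 5.41 to 8.62 and 3.79 to 12.6% in the spleen and 13.8 to 20.8, 3.05 to 4.21 and 4.10 to 7.11% in the tumor. Stray RNA in the CD8 sort was not measured this way. Unthinned, B cells had 0.586 to 2.85% for Tbx21, 0 to 0.238% for Eomes and 0.238 to 0.379% for Tox, and macrophages 0.128 to 0.935% for Tbx21 and 0 to 0.438% for Eomes. Zeb2, by contrast, was seen in 39.1 to 45.2% of thinned tumor macrophages, Prdm1 in 5.87 to 13.1% and Bhlhe40 in 18.3 to 22.3%, and each of these factors also works in myeloid cells. For Bhlhe40, splenic CD8 T cells of the CD45 sort (0 to 4.05%) overlapped B cells (1.32 to 2.95%), so a share alone does not set them apart from stray RNA. In spleens of the CD8 sort, Bhlhe40 had 495 UMIs in Ccl5-gated cells and 11 in naive-gated cells, gates described below. The part of stray RNA in these counts was not tested. Median UMIs per cell were 10960, 10190, 10060 and 8819 in tumor CD8 T cells of the CD8 sort and 6384, 6314, 6286 and 5789 in splenic ones. B cells had 4222, 4162, 4469 and 4284 and tumor macrophages 14640, 14770, 14290 and 11530. NK cells had 9893, 9109, 9194 and 9538 in the tumor and 3671, 3979, 4302 and 4151 in the spleen.

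Most splenic CD8 T cells carried naive markers, so tumor cells were also set against splenic CD8 T cells with at least 2 UMIs of Ccl5, a chemokine gene of antigen-experienced cells. The Ccl5 gate took 16.4, 14.8, 22 and 20.1% of passing splenic cells of the CD8 sort. The naive gate (Ccl5 at 0 and at least 1 UMI of naive markers such as Ccr7) took 73.9, 74.8, 69.0 and 69.6%. In this sort Aire-/- spleens thus held more Ccl5-gated cells than Aire+/+ spleens. In the CD45 sort 27, 27, 36 and 33 splenic CD8 T cells passed the Ccl5 gate, of 133, 143, 148 and 174, with little difference under anti-PD1. The comparison of tumor with Ccl5-gated cells uses the libraries of the contrast above, and the comparison of splenic gates uses its spleens.

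Against Ccl5-gated splenic cells, tumor CD8 T cells still had more Prdm1, Id2, Batf and Bhlhe40 and less Eomes, while Tbx21, Zeb2 and Tox did not pass the test. That made 4 of 8 factors higher and 1 lower, where 31.1% and 32.2% of 10893 genes were called. The median of the factors was 0.62, against -0.03 over all genes. Ccl5-gated splenic cells had 85.4, 81.2, 143 and 123.2 CPM of Tbx21. This overlapped the tumor range, with the Aire-/- spleens the higher ones and the tumor above the spleen in 3 of 4 conditions. Tbx21 differed by 0.35 and did not pass (adjusted p = 0.0945, edgeR QL, BH, higher in 3 of 4 conditions). Without the Aire-/- isotype libraries it passed at 0.51 (higher in 3 of 3 conditions). It also passed with DESeq2 at 0.40 and with the cells of highest UMI counts left out at 0.42. Eomes in the Ccl5-gated cells was 99.8, 88.7, 103 and 120.2 CPM, above every tumor library by a wide margin (log2 difference -2.51, SE 0.113, edgeR QL, BH adjusted p = 3.37e-08, lower in the tumor in 4 of 4 conditions). Prdm1 was 3.08, 5.36, 9.22 and 4.58 CPM, below every tumor library (log2 difference 1.90, SE 0.237, edgeR QL, BH adjusted p = 0.000137, higher in the tumor in 4 of 4 conditions).

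Id2 in the Ccl5-gated splenic cells was 217, 166, 349 and 382 CPM, higher in the Aire-/- spleens but below all tumors (log2 difference 1.55, SE 0.267, edgeR QL, BH adjusted p = 0.00776, higher in the tumor in 4 of 4 conditions). Zeb2 there was 22.1, 20.8, 58.4 and 26.4 CPM. Its range overlapped that of the tumor, and only the isotype-treated Aire-/- spleen was above its tumor (log2 difference 0.00, SE 0.328, edgeR QL, BH adjusted p = 0.9995, higher in 3 of 4 conditions). Without the Aire-/- isotype libraries Zeb2 passed at 0.39, and with thinned cells it passed in the other direction at -1.08. Tox was 34.6, 45.8, 27.7 and 31.3 CPM, with overlapping groups (log2 difference -0.02, SE 0.0989, edgeR QL, BH adjusted p = 0.883, higher in 3 of 4 conditions). The fitted Tox difference was close to 0 and its sign moved with the scaling. Batf was 43.1, 42.3, 43.8 and 53.9 CPM, below every tumor (log2 difference 0.89, SE 0.0933, edgeR QL, BH adjusted p = 8.13e-06, higher in the tumor in 4 of 4 conditions). Bhlhe40 was 21.8, 20.8, 41.3 and 48.3 CPM, far below every tumor (log2 difference 4.88, SE 0.269, edgeR QL, BH adjusted p = 7.66e-05, higher in the tumor in 4 of 4 conditions). Thinned cells gave 1.30 for Prdm1, 0.93 for Id2 and 4.09 for Bhlhe40.

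Inside the spleen, Ccl5-gated cells differed from naive-gated cells of the same libraries in 7 of 8 factors, with Batf the exception. The test called 6 higher and 1 lower, where 16.7% and 15.0% of 9961 genes were called. The factors had a median of 2.54, against -0.02 over all genes. In naive-gated cells Tbx21 was 3.40, 2.77, 5.99 and 5.11 CPM, below every Ccl5-gated value (log2 difference 4.58, SE 0.0885, edgeR QL, BH adjusted p = 3.19e-18, higher in 4 of 4 libraries). Eomes was 26.2, 22.9, 35.3 and 47.6 CPM in naive-gated cells, again below every Ccl5-gated value (log2 difference 1.60, SE 0.124, edgeR QL, BH adjusted p = 6.12e-05, higher in 4 of 4 libraries). Eomes was thus higher in experienced splenic cells and lower in tumor cells. Prdm1 (0.362, 0.584, 0.687 and 0.557 CPM, from 26 UMIs over the 4 libraries) was nearly silent in naive-gated cells (log2 difference 3.20, SE 0.326, edgeR QL, BH adjusted p = 2.55e-07, higher in 4 of 4 libraries). Zeb2 and Bhlhe40 were close to absent there, with 1, 3, 0 and 2 and 2, 5, 2 and 2 UMIs. Zeb2 was higher in Ccl5-gated cells of 4 of 4 libraries (log2 difference 7.68, SE 0.274, edgeR QL, BH adjusted p = 9.39e-14), and Bhlhe40 likewise (log2 difference 6.94, SE 0.225, edgeR QL, BH adjusted p = 1.05e-14). Prdm1, Zeb2 and Bhlhe40 passed the filter on low counts through the Ccl5-gated cells alone. Their calls, sizes and p thus rest on these few naive-gated UMIs, and no exact size is read from them.

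Id2 was 67.7, 76.1, 64.1 and 67.4 CPM in naive-gated cells, even over the 4 spleens and below every Ccl5-gated value (log2 difference 1.88, SE 0.302, edgeR QL, BH adjusted p = 0.0256, higher in 4 of 4 libraries). That call was lost without the Aire+/+ isotype library (1.97), the Aire-/- isotype library (1.73) or the Aire-/- anti-PD1 library (1.70), with Id2 higher in 3 of 3 libraries each time. Tox was 46.7, 44.9, 43.0 and 41.3 CPM in naive-gated cells, within a narrow band that most Ccl5-gated values lay below (log2 difference -0.42, SE 0.103, edgeR QL, BH adjusted p = 0.00618, lower in 3 of 4 libraries). With thinned cells Tox did not pass (-0.21). Batf was 39.5, 34.3, 39.9 and 47.3 CPM in naive-gated cells, overlapping the Ccl5-gated values (log2 difference 0.11, SE 0.0731, edgeR QL, BH adjusted p = 0.268, higher in 4 of 4 libraries). The Zeb2 difference ran from 7.01 without the Aire-/- isotype library, which had the highest Ccl5-gated value, to 8.28 without the Aire+/+ anti-PD1 library. It was 10.02 with thinned cells and 9.05 with the cells of highest UMI counts left out. Thinned cells also gave 2.58 for Id2 and 7.57 for Bhlhe40.

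Within the tumor, CD8 T cells with Havcr2 and no Tcf7 UMI were set against cells with Tcf7 and no Havcr2 UMI of the same libraries. Havcr2-gated cells had more Tbx21, Prdm1, Id2, Zeb2 and Bhlhe40 and less Eomes, and Tox and Batf did not pass. Of the 8 factors, 5 were called higher and 1 lower, where 21.3% and 22.4% of 10384 genes were called. The median of the factors was 0.91, against -0.02 over all genes. The Havcr2 gate took 41.6, 49.7, 46.2 and 47.2% of passing cells and the Tcf7 gate 12.5, 8.33, 9.80 and 9.58%. Cells with neither or both genes fell outside these gates, and a cell with no UMI of a gene may still express it.

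Tbx21 was at 137, 168, 144 and 142 CPM in Havcr2-gated cells and 70.8, 88.2, 65.9 and 82.0 in Tcf7-gated cells. The gates did not overlap (log2 difference 0.88, SE 0.0701, edgeR QL, BH adjusted p = 1.63e-09, higher in 4 of 4 libraries). Eomes was at 12.7, 9.98, 10.6 and 14.9 CPM in Havcr2-gated cells and 65.9, 44.1, 44.1 and 48.0 in Tcf7-gated cells. Every Tcf7-gated value was above every Havcr2-gated value, most of all under isotype in Aire+/+ mice (log2 difference -2.16, SE 0.114, edgeR QL, BH adjusted p = 4.33e-12, lower in 4 of 4 libraries). Prdm1 was at 34.1, 31.4, 27.5 and 20.9 CPM in Havcr2-gated cells and 6.46, 6.83, 2.37 and 2.58 in Tcf7-gated cells, the latter from 25, 13, 5 and 5 UMIs. The gates lay apart (log2 difference 2.54, SE 0.175, edgeR QL, BH adjusted p = 1.86e-10, higher in 4 of 4 libraries). Id2 was at 1040.3, 1112, 969 and 937 CPM in Havcr2-gated cells and 215, 269, 154 and 222 in Tcf7-gated cells. All Havcr2-gated values were well above (log2 difference 2.2, SE 0.118, edgeR QL, BH adjusted p = 3.17e-05, higher in 4 of 4 libraries). Zeb2 was at 31.4, 39.9, 38.4 and 35.1 CPM in Havcr2-gated cells and 14.5, 20, 12.3 and 11.4 in Tcf7-gated cells. It too had no overlap (log2 difference 1.23, SE 0.127, edgeR QL, BH adjusted p = 1.01e-07, higher in 4 of 4 libraries), and thinned cells gave 2.25.

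Tox was at 30.8, 42.6, 13.8 and 39.9 CPM in Havcr2-gated cells and 38.3, 48.3, 56.9 and 41.8 in Tcf7-gated cells. The Havcr2-gated cells of isotype-treated Aire-/- mice were the low point, and the gates overlapped over the remaining libraries. Tox was the lower in Havcr2-gated cells of 4 of 4 libraries without passing the test (log2 difference -0.65, SE 0.420, edgeR QL, BH adjusted p = 0.322). Without the Aire-/- isotype library the difference was -0.27 and passed (lower in 3 of 3 libraries). With thinned cells its sign turned, at 0.57. Batf was at 67.7, 79.5, 97.5 and 109 CPM in Havcr2-gated cells and 55.3, 94.5, 109 and 135 in Tcf7-gated cells. In both gates Aire-/- libraries were above Aire+/+ isotype, and the gates overlapped (log2 difference -0.17, SE 0.0882, edgeR QL, BH adjusted p = 0.140, lower in 3 of 4 libraries). Without the Aire+/+ isotype library Batf passed as lower at -0.29 (lower in 3 of 3 libraries). Bhlhe40 was at 1028, 1164, 1053 and 964 CPM in Havcr2-gated cells and 436, 553, 553 and 564 in Tcf7-gated cells. Both gates held much of it, with Havcr2-gated cells above throughout (log2 difference 0.94, SE 0.0606, edgeR QL, BH adjusted p = 2.75e-09, higher in 4 of 4 libraries).

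**Figure D2:**
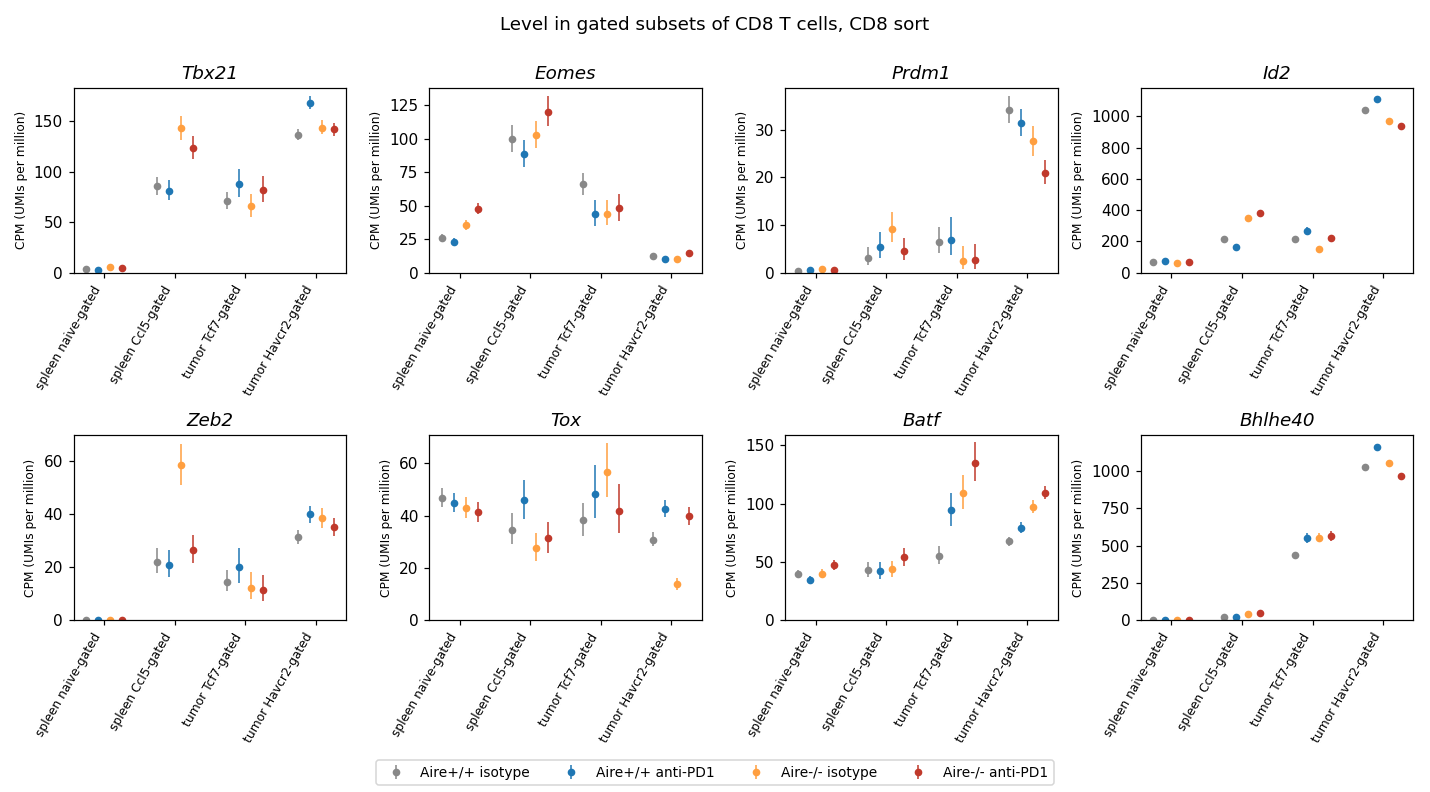
CPM of each factor (vertical axis) in naive-gated and Ccl5-gated splenic and in Tcf7-gated and Havcr2-gated tumor CD8 T cells of the CD8 sort, 1 point per library coloured by condition, with exact Poisson 95% bars. Zeb2 and Bhlhe40 are near 0 in naive-gated cells, Eomes is lowest in Havcr2-gated cells, and Tox of Havcr2-gated cells is lowest in isotype-treated Aire-/- mice.

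NK cells had a tissue pattern of their own, with Tbx21, Eomes, Prdm1, Zeb2 and Tox lower in the tumor than in the spleen and only Bhlhe40 higher. Thus 1 of 8 factors was called higher and 5 lower, where 22.3% and 19.0% of 6983 genes were called. The median of the factors was -0.83, against -0.02 over all genes. With library totals in place of TMM factors the median of all genes moved to -0.40, and the split of called genes went from 1556 higher and 1325 lower to 875 and 2637. The splenic NK libraries were shallow, with 308751, 209322, 276900 and 230400 UMIs against 1405017, 1756009, 1837598 and 3287142 in the tumor. Macrophage markers summed to 27.1, 13.7, 17.4 and 8.52 CPM in tumor NK cells and 6.48, 4.78, 3.61 and 8.68 in splenic ones, with 5 to 6 of 7 genes seen in the tumor, led by C1qa, C1qb or Lyz2. Dendritic cell genes, mostly Fscn1 in the tumor, summed to 61.2, 1.71, 0.544 and 25.3 CPM in tumor and 0, 0, 10.8 and 0 in splenic NK cells, and cycling genes to 130.2, 247, 189.9 and 117 and 22.7, 9.56, 152 and 4.34. Their part in these results was not tested.

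Tbx21, which NK cells need for their final maturation, was at 122, 172, 172 and 148 CPM in tumor NK cells and 496, 311, 429.8 and 504 in splenic NK cells. All spleens were above all tumors, least so under anti-PD1 in Aire+/+ mice (log2 difference -1.13, SE 0.147, edgeR QL, BH adjusted p = 9.35e-07, lower in 4 of 4 conditions). Eomes, which separates conventional NK cells from type 1 innate lymphoid cells, was at 204, 197, 219.9 and 204 CPM in tumor NK cells and 349.8, 449, 343 and 412 in splenic NK cells. Tumor values were even over the conditions and below all splenic values (log2 difference -0.52, SE 0.124, edgeR QL, BH adjusted p = 0.00124, lower in 4 of 4 conditions). With thinned cells the Eomes difference was -0.04 and did not pass. Zeb2, a partner of T-bet in NK maturation, was at 27.1, 23.9, 27.8 and 20.4 CPM in tumor NK cells and 266, 172, 253 and 282 in splenic NK cells. The groups lay far apart (log2 difference -2.93, SE 0.170, edgeR QL, BH adjusted p = 7.70e-14, lower in 4 of 4 conditions), and thinned cells gave -2.08. Prdm1 was at 9.25, 7.40, 5.44 and 5.78 CPM in tumor NK cells and 42.1, 28.7, 14.5 and 47.7 in splenic NK cells, from 13, 6, 4 and 11 UMIs in the spleens. The groups did not overlap (log2 difference -1.88, SE 0.349, edgeR QL, BH adjusted p = 8.91e-05, lower in 4 of 4 conditions). Prdm1 passed the filter on low counts through the splenic NK cells alone, so its size and p rest on these few UMIs. Tox, needed for NK development, was at 13.5, 15.4, 13.6 and 12.5 CPM in tumor NK cells and 51.8, 57.3, 47.0 and 52.1 in splenic NK cells, from 16, 12, 13 and 12 UMIs in the spleens. Each splenic value was above each tumor value (log2 difference -1.54, SE 0.275, edgeR QL, BH adjusted p = 5.40e-05, lower in 4 of 4 conditions).

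Id2, on which the NK lineage depends, was at 897, 778, 806 and 773 CPM in tumor NK cells and 910.1, 889, 939 and 1089 in splenic NK cells. Levels were high in both tissues and overlapped, and CPM was lower in the tumor in 4 of 4 conditions although the fitted difference was positive (log2 difference 0.15, SE 0.0950, edgeR QL, BH adjusted p = 0.223). Library totals turned its sign to -0.23 and it then passed, and without the filter on low counts it passed at 0.26. Batf was at 31.3, 22.2, 27.2 and 34.1 CPM in tumor NK cells and 55.1, 33.4, 47.0 and 30.4 in splenic NK cells, the spleens from 17, 7, 13 and 7 UMIs. The groups overlapped (log2 difference -0.16, SE 0.262, edgeR QL, BH adjusted p = 0.656, lower in 3 of 4 conditions). Bhlhe40 was at 695, 690.2, 659.6 and 839 CPM in tumor NK cells and 204, 172, 122.8 and 165 in splenic NK cells. All tumors were above all spleens (log2 difference 2.50, SE 0.129, edgeR QL, BH adjusted p = 1.05e-14, higher in 4 of 4 conditions). In thinned cells, the share of NK cells with a Tbx21 UMI was 59.7, 44.7, 56.6 and 67.3% in the spleen and 18.6, 27.9, 30.1 and 29.3% in the tumor, and unthinned it was 75.6, 76.6, 85.2 and 90.4% and 60.8, 75.2, 76.0 and 67.4%. For Eomes the thinned shares were 40.3, 61.7, 49.1 and 48.1% and 39.2, 34.1, 40.4 and 35.1%, and the unthinned ones 60.3, 74.5, 68.5 and 75.0% and 71.1, 79.1, 82.9 and 75.6%. Tbx21 was thus the more frequent in the spleen in 4 of 4 conditions on either scale. Eomes was the more frequent in the spleen in 4 of 4 conditions with thinning and in the tumor in 4 of 4 without it. These shares were far above those of B cells and macrophages.

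The tissue difference itself was tested between NK and CD8 T cells of the CD45 sort, which uses the same libraries as each tissue contrast above. A negative value means that the step from spleen to tumor was lower in NK cells. Of 8 factors, 7 were called lower and 1, Eomes, higher, where 12.6% and 11.3% of 8662 genes were called. The factors had a median of -3.04, against -0.05 over all genes. With library totals the median of all genes was -0.52, and called genes went from 978 higher and 1088 lower to 509 and 2809. Tbx21 rose in tumor CD8 T cells and fell in tumor NK cells (log2 difference -3.50, SE 0.186, edgeR QL, BH adjusted p = 4.99e-18, opposite in 4 of 4 conditions). Zeb2 did the same (log2 difference -5.85, SE 0.372, edgeR QL, BH adjusted p = 2.22e-11, opposite in 4 of 4 conditions), at -3.79 with thinned cells and -6.88 without the Aire-/- isotype libraries. Prdm1 did so as well (log2 difference -6.08, SE 0.580, edgeR QL, BH adjusted p = 7.83e-11, opposite in 4 of 4 conditions), with -7.26 when the Aire-/- anti-PD1 libraries were left out. Splenic CD8 T cells held very few Prdm1 and Zeb2 UMIs, given above, and the sizes and p for both factors rest on them.

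Id2 rose in CD8 T cells while in NK cells its step was small (log2 difference -2.57, SE 0.113, edgeR QL, BH adjusted p = 3.23e-20, higher step in CD8 T cells in 4 of 4 conditions). Bhlhe40 rose in both cell types, more so in CD8 T cells, where its splenic level was near 0 (log2 difference -4.46, SE 0.240, edgeR QL, BH adjusted p = 1.23e-15, higher step in CD8 T cells in 4 of 4 conditions), and thinned cells gave -3.54. The size and p for Bhlhe40 rest on its few UMIs in splenic CD8 T cells. Eomes fell in both, less so in NK cells (log2 difference 0.95, SE 0.233, edgeR QL, BH adjusted p = 0.00536, smaller fall in NK cells in 3 of 4 conditions). The Eomes call was lost with library totals (0.48) and without the Aire-/- anti-PD1 libraries (0.68). Batf rose in CD8 T cells and did not pass in NK cells (log2 difference -1.33, SE 0.326, edgeR QL, BH adjusted p = 0.00235, higher step in CD8 T cells in 4 of 4 conditions), a call that thinned cells lost (-0.90). Tox fell in both (log2 difference -0.89, SE 0.306, edgeR QL, BH adjusted p = 0.0306, larger fall in NK cells in 4 of 4 conditions). The Tox call was lost with DESeq2 (-0.84), with thinned cells (-1.10), with the cells of highest UMI counts left out (-0.76) and without the Aire+/+ isotype (-0.83), Aire+/+ anti-PD1 (-0.77) or Aire-/- anti-PD1 (-0.81) libraries.

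Inside the tumor, NK cells had more Eomes and Tbx21 than CD8 T cells of the same CD45 libraries, and less Batf, Prdm1, Tox, Zeb2 and Bhlhe40. This comparison and the splenic one after it reuse the libraries of the tissue contrasts. These 2 higher and 5 lower of 8 stood where 15.0% and 16% of 8593 genes were called, with a median of -0.42 against -0.01. Eomes was the clearest, with all NK values above all CD8 T cell values (log2 difference 3.28, SE 0.131, edgeR QL, BH adjusted p = 1.65e-11, higher in 4 of 4 libraries). Tbx21 was higher in NK cells of 4 of 4 libraries with overlapping ranges (log2 difference 0.41, SE 0.0868, edgeR QL, BH adjusted p = 0.000949). Prdm1 (-1.86), Tox (-1.06) and Batf (-1.59) were lower in NK cells of 4 of 4 libraries without overlap (adjusted p = 2.19e-07, 0.000120 and 1.62e-08, edgeR QL, BH). Id2 did not pass (log2 difference 0.09, SE 0.0704, edgeR QL, BH adjusted p = 0.369, higher in 2 of 4 libraries), and it passed with thinned cells at 0.28. Zeb2 was lower without overlap (log2 difference -0.57, SE 0.144, edgeR QL, BH adjusted p = 0.00460, lower in 4 of 4 libraries). That call was lost with DESeq2 (-0.54), with the cells of highest UMI counts left out (-0.24) and without the Aire-/- anti-PD1 library (-0.44), and with thinned cells it turned to 0.84. Bhlhe40 was lower by a small margin with overlapping ranges (log2 difference -0.28, SE 0.0692, edgeR QL, BH adjusted p = 0.00371, lower in 4 of 4 libraries). It was lost with the cells of highest UMI counts left out (-0.16) and without the Aire+/+ anti-PD1 library (-0.24), and turned to 0.06 with thinned cells.

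In the spleen, NK cells had far more Tbx21, Eomes, Id2, Zeb2 and Bhlhe40 than CD8 T cells of the same libraries. Prdm1 had too few UMIs to be tested, and of the 7 factors tested, 5 were called higher and 0 lower. Among all 6125 genes, 17.5% and 17.6% were called higher and lower. At an unadjusted p under 0.05, edgeR and DESeq2 likewise gave no factor as lower. The factors had a median of 2.65, against 0.00 over all genes. Library totals moved the median of all genes to 0.45 and the split from 1069 higher and 1081 lower to 2643 and 551. Tbx21 (log2 difference 3.90, SE 0.155, edgeR QL, BH adjusted p = 4.79e-35), Eomes (2.32, adjusted p = 8.45e-24) and Id2 (2.65, adjusted p = 9.05e-39) were higher in NK cells of 4 of 4 libraries without overlap. Zeb2 (log2 difference 5.24, SE 0.290, edgeR QL, BH adjusted p = 2.12e-14) and Bhlhe40 (4.15, adjusted p = 2.74e-24) were likewise higher in 4 of 4. Zeb2 and Bhlhe40 passed the filter on low counts through the NK cells alone. Their sizes and p thus rest on few UMIs in splenic CD8 T cells. Zeb2 came to 5.92 with DESeq2, 4.60 with thinned cells and 6.10 without the Aire-/- isotype library, and Tbx21 to 4.76 with thinned cells. Tox (log2 difference -0.18, SE 0.230, edgeR QL, BH adjusted p = 0.599, higher in 3 of 4 libraries by CPM) and Batf (log2 difference -0.26, SE 0.262, edgeR QL, BH adjusted p = 0.479, higher in 2 of 4) did not pass, and library totals turned their signs to 0.27 and 0.18.

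Set side by side over 8 populations, each factor had an order of its own, given here as mean CPM ± SD over 4 libraries. The CD8 T cell subsets came from the CD8 sort, and NK cells, B cells and macrophages from the CD45 sort. In CD8 T cell subsets of the CD45 sort, with fewer cells, some orders differed. There Tox was 48.9 ± 23.1 in Ccl5-gated and 29.8 ± 8.96 in Tcf7-gated cells, and Prdm1 was 35.9 ± 10.2 in Havcr2-gated cells. Tbx21 was highest in splenic NK cells, at 435 ± 89.2, apart from tumor NK cells at 153 ± 24. Tumor NK, tumor Havcr2-gated (148 ± 13.9) and splenic Ccl5-gated cells (108 ± 29.8) overlapped in turn, as did tumor Tcf7-gated cells (76.7 ± 10.2) with the last, and naive-gated cells (4.32 ± 1.49) overlapped B cells (4.61 ± 3.25). Eomes went from 389 ± 51.0 in splenic NK cells through 206 ± 9.67 in tumor NK cells and 103 ± 13.1 in Ccl5-gated cells, each apart from the next. Tcf7-gated (50.5 ± 10.4) and naive-gated cells (33.0 ± 11.1) overlapped above Havcr2-gated cells (12 ± 2.23), and B cells (0.579 ± 0.621) and macrophages (0.155 ± 0.190) were near 0. Prdm1 was highest in tumor macrophages (48.8 ± 20), overlapping splenic NK cells (33.2 ± 14.9) and these in turn Havcr2-gated cells (28.5 ± 5.71). Tumor NK (6.97 ± 1.75), Ccl5-gated (5.56 ± 2.62), Tcf7-gated (4.56 ± 2.41), B (3.21 ± 0.698) and naive-gated cells (0.548 ± 0.136) followed. Id2 was highest in Havcr2-gated cells (1015 ± 78.0), splenic NK cells (957 ± 90.8) and tumor NK cells (813 ± 57.5), which overlapped in that order. Macrophages (424 ± 30.9), Ccl5-gated (278 ± 103), Tcf7-gated (215 ± 47.1), naive-gated (68.8 ± 5.11) and B cells (9.03 ± 1.14) came after.

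Zeb2 was highest in tumor macrophages (272 ± 13.7) and splenic NK cells (243 ± 48.9), which overlapped, with Havcr2-gated cells (36.2 ± 3.78), B cells (34.2 ± 6.22) and Ccl5-gated cells (31.9 ± 17.8) far below, then tumor NK (24.8 ± 3.37), Tcf7-gated (14.5 ± 3.85) and naive-gated cells (0.119 ± 0.101). Tox formed a flat series, in which splenic NK (52.1 ± 4.24), Tcf7-gated (46.3 ± 8.17), naive-gated (44.0 ± 2.33), Ccl5-gated (34.9 ± 7.85) and Havcr2-gated cells (31.8 ± 13) each overlapped the next. Havcr2-gated cells in turn overlapped tumor NK cells (13.7 ± 1.20), and B cells lay apart at 1.06 ± 0.256. Batf was highest in Tcf7-gated (98.6 ± 33.4) and Havcr2-gated tumor cells (88.5 ± 18.5), which overlapped above all others. Ccl5-gated (45.8 ± 5.47), splenic NK (41.5 ± 11.6), naive-gated (40.2 ± 5.34), tumor NK (28.7 ± 5.17), macrophage (22 ± 2.67) and B cells (20.1 ± 1.82) followed. Bhlhe40 fell apart into steps, from 1052 ± 83.2 in Havcr2-gated cells through 721 ± 80.1 in tumor NK and 527 ± 60.9 in Tcf7-gated cells to 166 ± 33.4 in splenic NK cells, which overlapped macrophages (143 ± 16.8), 33.0 ± 13.8 in Ccl5-gated, overlapping 15.0 ± 7.73 in B cells, and 0.223 ± 0.0972 in naive-gated cells.

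Conditions were compared by the ratio of CPM between 2 libraries, with a conditional exact 95% interval for counting error only. These ratios had no test, since each side was 1 library. A factor was counted when it differed at least 1.5-fold with at least 50 UMIs over the pair. In tumor CD8 T cells of the CD8 sort, few factors passed that size. For Aire-/- against Aire+/+ under anti-PD1 it was 0 of 8, where 5.0% of all genes were past it, and under isotype 1 of 8, where 5.35% were. For anti-PD1 against isotype it was 1 of 8 in Aire+/+ mice, where 3.98% were, and 1 of 8 in Aire-/- mice, where 3.48% were. Medians of the factors in those 4 contrasts were -0.22, -0.03, 0.29 and 0.04, against -0.01, -0.03, 0.01 and 0.03 over all genes.

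Tox was the factor past the fold in Aire-/- tumors. It was lower in Aire-/- than Aire+/+ mice under isotype, with a log2 ratio of -0.59 (95% CI -0.75 to -0.44), and higher under anti-PD1 than isotype in Aire-/- mice, at 0.76 (95% CI 0.60 to 0.92). Both ratios share the isotype-treated Aire-/- library, the lowest of the 4. In Havcr2-gated cells alone, Tox was -1.16 (95% CI -1.43 to -0.90) for genotype under isotype and 1.53 (95% CI 1.27 to 1.80) for anti-PD1 in Aire-/- mice. Tcf7-gated cells gave 0.57 (95% CI 0.21 to 0.93) and -0.44 (95% CI -0.87 to -0.03), so there the isotype-treated Aire-/- library was the highest. Centred on the median of all genes, the genotype ratio was -0.57 and no longer past 1.5-fold. Eomes in Aire+/+ mice was lower under anti-PD1 than isotype, at -0.80 (95% CI -0.99 to -0.62), while Havcr2-gated cells gave -0.35 and Tcf7-gated cells -0.58, neither of them past the fold. Prdm1 stayed just under it between genotypes under anti-PD1, at -0.58 (95% CI -0.76 to -0.39), and passed with thinned cells at -0.72 and in Havcr2-gated cells at -0.59. Thinned cells also brought Eomes past it in that contrast at 0.72, and Batf for genotype under isotype at 0.61.

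In tumor CD8 T cells of the CD45 sort, with fewer cells, 0 of 8 factors passed between genotypes under anti-PD1, where 9.95% of all genes did, and 2 of 8 under isotype, where 9.52% did. For anti-PD1 against isotype it was 0 of 8 in Aire+/+ mice, where 10.2% of genes passed, and 1 of 8 in Aire-/- mice, where 8.63% did. The medians of the factors were 0.02, -0.09, 0.22 and 0.24, against 0.05, 0.05, 0.04 and 0.04 over all genes. Tox was again higher under anti-PD1 in Aire-/- mice, at 0.99 (95% CI 0.51 to 1.51), and at 2.13 (95% CI 1.25 to 3.17) in Havcr2-gated cells. Under isotype the genotype ratio of Tox was -0.41 (95% CI -1.13 to 0.32), an interval that includes 0. Eomes was lower in Aire-/- mice under isotype, at -0.91 (95% CI -1.65 to -0.19), and Batf was higher, at 0.72 (95% CI 0.34 to 1.11). In the CD8 sort the same ratios were -0.36 (95% CI -0.54 to -0.18) for Eomes and 0.50 (95% CI 0.41 to 0.59) for Batf, of the same sign and under the fold. Tbx21 under anti-PD1 in Aire+/+ mice was 0.58 (95% CI 0.25 to 0.91) here and 0.36 (95% CI 0.30 to 0.42) in the CD8 sort.

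Several of the CD45 values moved past the fold with other settings. Havcr2-gated cells gave 1.72 for Eomes between genotypes under anti-PD1, -0.92 for Prdm1 between genotypes under isotype, and 0.66 and 0.85 for Tbx21 and Batf under anti-PD1 in Aire+/+ mice. For Prdm1 between genotypes under isotype, the stricter gate and the centring on all genes each gave -0.63, against -0.58 as gated. Thinned cells gave 0.88 for Zeb2 between genotypes under anti-PD1 and 1.04 for Zeb2 under anti-PD1 in Aire-/- mice. The macrophage markers of these CD8 T cells summed to 17.3, 40.6, 54.9 and 85.7 CPM, in the same order of conditions as in the CD8 sort. Dendritic cell genes summed to 55.1, 5.88, 0.443 and 22.9 CPM, in another order, and neutrophil genes to 0, 25.5, 0 and 0.276. Their part in these ratios was not tested.

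In splenic CD8 T cells of the CD8 sort, more factors were past the fold between genotypes than between treatments. Here 5 of 8 factors were past 1.5-fold between genotypes under anti-PD1, where 7.37% of all genes were, and 4 of 8 under isotype, where 6.14% were. Every one of these was higher in Aire-/- mice. For anti-PD1 against isotype it was 0 of the 7 factors with 50 UMIs in Aire+/+ mice, where 2.63% of genes were past it, and 2 of 8 in Aire-/- mice, where 3.45% were. The factors had medians of 0.65 and 0.78 between genotypes, against 0.07 and 0.01 over all genes. Between treatments their medians were -0.16 in Aire+/+ and 0.01 in Aire-/- mice, against -0.02 and 0.04.

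Tbx21 in Aire-/- spleens was higher by log2 ratios of 0.90 (95% CI 0.70 to 1.10) under anti-PD1 and 1.02 (95% CI 0.84 to 1.20) under isotype. Bhlhe40 was higher by 1.26 (95% CI 0.89 to 1.63) and 1.30 (95% CI 0.93 to 1.69), at low cell shares. Zeb2 was higher by 0.69 (95% CI 0.24 to 1.14) and 1.71 (95% CI 1.35 to 2.08), the isotype-treated Aire-/- spleen being the highest. Those 3 factors were past the fold in both contrasts, and Eomes and Id2 in the anti-PD1 contrast alone. Eomes gave 0.84 (95% CI 0.70 to 0.98) and 0.41 (95% CI 0.26 to 0.55), and Id2 gave 0.61 (95% CI 0.52 to 0.70) and 0.54 (95% CI 0.45 to 0.63). Prdm1 was past it under isotype at 1.51 (95% CI 0.70 to 2.37), from few UMIs. Tox and Batf had ratios between genotypes of -0.17 and 0.46 under anti-PD1 and -0.18 and 0.04 under isotype, all under the fold. Between treatments in Aire-/- mice, Zeb2 was lower under anti-PD1 at -1.24 (95% CI -1.59 to -0.90), and so was Prdm1 at -0.88 (95% CI -1.66 to -0.13). Thinned cells took Id2 and Zeb2 under anti-PD1 below the fold, at 0.58 and 0.47, centring took Id2 to 0.54, and thinned cells gave 1.08 for Zeb2 under isotype.

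The CD45-sort spleens, with fewer cells and levels given above, did not repeat all of this. Under isotype Id2 and Eomes were no higher in Aire-/- mice, and under anti-PD1 Tbx21 was 17.9 CPM against 14.5 in Aire+/+ mice. Some pairs did run as in the CD8 sort. Higher in Aire-/- mice were Tbx21 under isotype, and under anti-PD1 Id2 and Eomes (86.7 against 44.5 CPM). Zeb2 and Bhlhe40 were higher under either antibody, from few UMIs. Batf was also higher in Aire-/- mice under either antibody, at 58.0 against 24.9 CPM under isotype, and Tox was higher under anti-PD1. In the CD8 sort the genotype ratios of Batf and Tox were under the fold. Other measures moved with genotype in the spleens of the CD8 sort. The Ccl5-gated share there was larger in Aire-/- mice. The cycling genes Mki67 and Top2a summed to 11.0, 6.93, 54.8 and 26.0 CPM in splenic CD8 T cells, also higher in Aire-/- mice, against 315, 287, 296 and 236 in tumor CD8 T cells. In the CD45-sort spleens the sum was 9.04, 6.67, 6.00 and 6.26, not higher in Aire-/- mice. Within Ccl5-gated cells the genotype ratios under anti-PD1 were 0.60 for Tbx21, 1.20 for Id2 and 1.21 for Bhlhe40, all past the fold, and 0.34 for Zeb2 and 0.44 for Eomes, not past it. Under isotype they were 0.74 for Tbx21, 0.69 for Id2, 1.40 for Zeb2 and 0.92 for Bhlhe40, past the fold, and 0.04 for Eomes. Tbx21, Id2 and Bhlhe40 were thus higher in Aire-/- mice inside the gate too, whereas Eomes was under the fold there in both contrasts. Over all genes in the gate 11.4% and 8.89% were past the fold, with medians of 0.11 and 0.06, and less that median Tbx21 under anti-PD1 was not past it. In all splenic CD8 T cells of the CD8 sort, genes known to accompany T-bet and Eomes had 6 of 10 past the fold as higher and 0 as lower in each genotype contrast, where 7.37% and 6.14% of all genes were past it, with medians of 0.78 under anti-PD1 and 0.93 under isotype. Exhaustion receptors and partners had 5 higher under anti-PD1 and 3 under isotype with 0 lower, and medians of 0.70 and -0.08. In the same cells, treatment in Aire-/- mice gave 5 higher and 0 lower for that list (median 0.60) and 0 higher and 4 lower for the former (-0.24), where 3.45% of all genes were past the fold. The part of cycling cells and of the Ccl5-gated share in the ungated ratios was not tested.

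**Figure D3:**
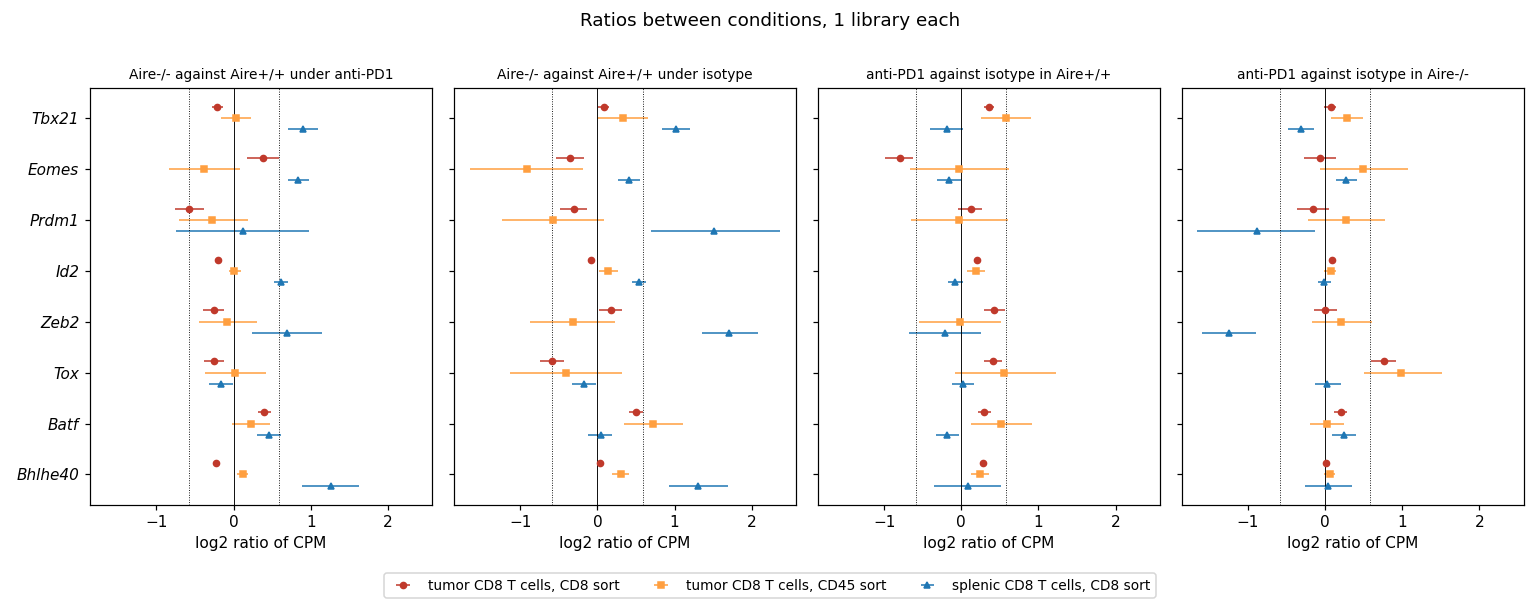
Log2 ratio of CPM between conditions (horizontal axis) for each factor in tumor CD8 T cells of the CD8 sort, tumor CD8 T cells of the CD45 sort and splenic CD8 T cells of the CD8 sort, with conditional exact 95% intervals for counting error and dotted lines at 1.5-fold. Splenic genotype ratios of Tbx21, Zeb2 and Bhlhe40 lie above the upper dotted line under either antibody, and Tox under anti-PD1 in Aire-/- tumors lies above it in both sorts.

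Few of the factors differed by condition in tumor NK cells. Of the 7 factors with 50 UMIs over the pair, 1 was past 1.5-fold between genotypes under anti-PD1, where 9.04% of all genes were, and under isotype 0 of 6, where 12.8% were. For anti-PD1 against isotype it was 0 of 6 in Aire+/+ mice, where 9.24% were, and 0 of 7 in Aire-/- mice, where 7.66% were. Medians of the factors were -0.01, -0.02, -0.11 and -0.10, against 0.00, 0.02, 0.03 and 0.02 over all genes. Genes known to accompany T-bet and Eomes had 6 higher and 0 lower of 8 past the fold between genotypes under anti-PD1 (median 0.71), 0 and 1 of 7 under isotype (0.17), 0 and 3 of 7 for anti-PD1 in Aire+/+ (-0.57) and 0 and 0 of 8 in Aire-/- mice (0.13). The factor past the fold was Batf, at 0.62 (95% CI 0.08 to 1.18), from few UMIs. Tbx21 passed between genotypes under isotype with thinned cells at 1.62, against 0.50 (95% CI 0.23 to 0.78) as gated, and Batf in Aire+/+ mice with stricter gates at -0.61. In splenic NK cells, with 47 to 78 cells a library, Tbx21 and Zeb2 were lowest under anti-PD1 in Aire+/+ mice. Eomes (449 CPM) and Tox (57.3 CPM) were highest in that same library. Over all genes in splenic NK cells, 11.8% were past 1.5-fold between genotypes under anti-PD1 and 11.4% under isotype. There Tbx21 had genotype ratios of 0.70 (95% CI 0.25 to 1.16) under anti-PD1 and -0.21 (95% CI -0.56 to 0.15) under isotype, and Zeb2 0.71 (95% CI 0.10 to 1.34) and -0.07 (95% CI -0.55 to 0.41).

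Paralogs of the factors were mostly scarce, and Zfp683 had no row. In CD8 T cells of the CD8 sort, Id3, which opposes Id2-driven effector fate in memory cells, was 8.53, 6.72, 12.7 and 8.97 CPM in the tumor and 76.5, 72.9, 64.7 and 89.8 in the spleen. Id3 thus ran opposite to Id2, with all spleens above all tumors (log2 difference -3.14). Zeb1, the counterpart of Zeb2, was 21.1, 20.1, 20.3 and 18.3 CPM in the tumor and 24.8, 28.0, 26.5 and 26.6 in the spleen. It too was lower in the tumor throughout (-0.49). Batf3 was 5.07, 3.87, 2.66 and 2.81 CPM in the tumor and 0.953, 0.605, 0.398 and 0.517 in the spleen, and Id1 3.52, 3.79, 3.23 and 5.09 and 0.212, 0, 0.0664 and 0.0646. Both were higher in the tumor, Batf3 by 2.45 and Id1 by 5.28, the latter from 4, 0, 1 and 1 splenic UMIs. Tox4, a broadly expressed relative of Tox, was slightly higher in the tumor, by 0.13, at 52.8, 55.7, 52.4 and 57.3 CPM in the tumor and 47.7, 43.2, 46.7 and 50.2 in the spleen. Tox2 had at most 14 UMIs in a library, Bhlhe41 at most 13 and Batf2 at most 3, while Tox3 had 1 in each Aire-/- spleen and Id4 had 0. Of 5 paralogs tested, 3 were called higher and 2 lower (median 0.13), where 37.8% and 39.8% of all genes were. In NK cells 0 of 2 were called, where 22.3% and 19.0% were (median 0.33), and between tumor gates 0 were higher and 2 lower of 5, where 21.3% and 22.4% were (median -0.23).

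Lists of related genes put the factors in context, each with its count of called genes and its median log2 difference. For tumor against splenic CD8 T cells of the CD8 sort, where 37.8% of all genes were called higher and 39.8% lower, naive and memory factors had 0 higher and 11 lower of 13, median -1.66, and the repressors of effector fate Foxp1 (-2.15) and Bach2 (-1.83) were lower. AP-1 and IRF partners, some of which bind DNA with BATF, had 10 higher and 1 lower of 12, median 3.13. Fosl2 (4.53) and Junb (3.50) were higher and Irf2 (-0.55) lower. Other effector or exhaustion factors had 12 higher and 2 lower of 17, median 0.65, with the Notch mediator Rbpj (3.36) and Nfil3 (5.14) higher and Runx1 (-1.59) and Stat5b (-0.22) lower. Genes known to accompany T-bet and Eomes had 6 higher and 2 lower of 10, median 2.09, with the pore-forming Prf1 (3.65) and the cytokine receptor chain Il2rb (2.0) higher and S1pr5 (-4.12), a receptor for tissue exit, and Cxcr3 (-0.44) lower. Exhaustion receptors and partners had 10 higher and 0 lower of 10, median 5.24, led by Ctla4 (6.46) and Pdcd1 (7.2). All genes together had a median of -0.03.

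For NK cells, tumor against spleen, where 22.3% of all genes were called higher and 19.0% lower, naive and memory factors had 2 higher and 5 lower of 11, median -0.41, with Myb (1.44) higher and Klf2 (-1.75), of circulating cells, lower. Ccr7 had 0 UMIs in splenic NK cells and was at least 14.9-fold higher in the tumor, with 3 UMIs over the 4 spleens as the floor. It was 17.1, 50.7, 23.4 and 62.4 CPM in the tumors, and like Fscn1, given above, it is also a gene of mature dendritic cells. AP-1 and IRF partners had 7 higher and 2 lower of 9, median 2.04, with Irf8 (2.13) and Junb (2.04) higher and Irf2 (-1.10) and Irf1 (-0.62) lower. Other effector or exhaustion factors had 9 higher and 4 lower of 17, median 1.0, with the activation-induced Nr4a1 (4.19) and Rbpj (3.38) higher and Stat4 (-0.88) and Runx1 (-1.18) lower. Genes known to accompany T-bet and Eomes had 4 higher and 6 lower of 10, median -1.82, with the granule genes Gzmb (3.32) and Prf1 (0.62) higher. S1pr5 (-6.05) and the fractalkine receptor Cx3cr1 (-3.23), of mature circulating NK cells, were lower. Exhaustion receptors and partners had 5 higher and 3 lower of 8, median 2.65, with Lag3 (3.32) higher and Cd160 (-1.49) and Entpd1 (-1.34) lower. Ctla4 had 0 UMIs in splenic NK cells and was at least 35.6-fold higher in the tumor. With genes at 0 set to their bounds, these list medians did not change, and over all genes the median was -0.02.

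Between Havcr2-gated and Tcf7-gated tumor cells, where 21.3% of all genes were called higher and 22.4% lower, naive and memory factors without the gating gene had 0 higher and 12 lower of 12, median -2.25, among them Klf2 (-2.73). AP-1 and IRF partners had 4 higher and 4 lower of 12, median -0.08. Among them Irf8 (2.18) and Jund (0.47) were higher and Irf1 (-1.18) and Fos (-1.42) lower. Other effector or exhaustion factors had 6 higher and 7 lower of 17, median -0.01, with Rbpj (1.55) and Zbtb32 (1.81) higher and Stat4 (-0.64) and Stat5b (-0.72) lower. Genes known to accompany T-bet and Eomes had 6 higher and 1 lower of 9, median 1.14, with Il2rb (0.97) and Cx3cr1 (1.49) higher and Cxcr3 (-2.26) lower. Exhaustion receptors and partners without the gating gene had 8 higher and 1 lower of 9, median 1.44, with Tigit (1.30) and the ectonucleotidase Entpd1 (3.64) higher and Cd160 (-1.12) lower. The paralogs Id3 (-4.21) and Zeb1 (-1.21) were lower in Havcr2-gated cells. Over all genes the median was -0.02.

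Likeness of pattern was measured as Pearson r of log2(CPM + 10) over 24 populations (CD8 T cells of 16 libraries and NK cells of 8) among 5344 genes. These populations fall into tissue and cell type groups and share libraries, so r is a description. Tbx21 was most like Osbpl3 (0.980) and Capzb (0.979), and Eomes most like Cd9 (0.976) and 1700025G04Rik (0.970). For Prdm1 the most alike were Gpd2 (0.957) and Pex16 (0.944), for Id2 Anxa2 (0.993) and Cox8a (0.992) and for Zeb2 Calm2 (0.968) and Slc25a24 (0.964). Tox had Myl12b (0.902) and Stk10 (0.901), Batf had Susd3 (0.882) and Lsp1 (0.877), and Bhlhe40 had Sh2d2a (0.989) and Sub1 (0.989). Batf and Tox thus had the loosest neighbours and Id2 the closest.

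The factors lie at chr11:97098007-97115331 (Tbx21), chr9:118478186-118486132 (Eomes), chr10:44437174-44528558 (Prdm1), chr12:25093799-25096092 (Id2), chr2:44983512-45117442 (Zeb2), chr4:6686353-6991557 (Tox), chr12:85686720-85709087 (Batf) and chr6:108660629-108666925 (Bhlhe40) in RefSeq GRCm38.p6, so no 2 are neighbours. Promoter sequences from the same RefSeq build were searched on both strands for motifs of the factor families at issue. These were the AP-1 motif TGANTCA, held by 7.81% of all 32851 promoters of that length, the E-box CACGTG (7.15%), the T-box motif TCACACC (3.98%) and the E-box CAGGTG (20.2%). Prdm1, Tbx21 and Zeb2 each had an entry with a match, and the entries of Batf, Eomes, Id2 and the other 3 of Zeb2 had none. Tox and Bhlhe40 had no entry. The matched promoters are shown as those with a match among the factors higher in tumor CD8 T cells, of which Id2 and Batf had no match and Bhlhe40 no entry, each 5′ to 3′ on the minus strand with matched letters in capitals, AP-1 and CAGGTG in Prdm1, CAGGTG in Tbx21 and AP-1 in Zeb2. A match is a run of letters, and no binding was measured.
Prdm1 promoter chr10:44458699-44458998: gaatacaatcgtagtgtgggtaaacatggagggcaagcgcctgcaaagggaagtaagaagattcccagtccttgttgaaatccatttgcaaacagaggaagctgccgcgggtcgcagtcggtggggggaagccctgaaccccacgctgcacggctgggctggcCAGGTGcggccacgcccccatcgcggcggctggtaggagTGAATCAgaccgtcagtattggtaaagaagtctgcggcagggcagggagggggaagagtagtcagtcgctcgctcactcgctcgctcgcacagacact
Tbx21 promoter chr11:97115282-97115581: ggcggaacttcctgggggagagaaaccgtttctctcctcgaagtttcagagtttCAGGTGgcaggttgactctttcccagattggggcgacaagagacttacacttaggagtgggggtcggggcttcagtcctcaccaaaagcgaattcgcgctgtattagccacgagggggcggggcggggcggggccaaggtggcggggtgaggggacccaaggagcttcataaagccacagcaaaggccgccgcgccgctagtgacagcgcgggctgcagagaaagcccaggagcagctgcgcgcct
Zeb2 promoter chr2:45110228-45110527: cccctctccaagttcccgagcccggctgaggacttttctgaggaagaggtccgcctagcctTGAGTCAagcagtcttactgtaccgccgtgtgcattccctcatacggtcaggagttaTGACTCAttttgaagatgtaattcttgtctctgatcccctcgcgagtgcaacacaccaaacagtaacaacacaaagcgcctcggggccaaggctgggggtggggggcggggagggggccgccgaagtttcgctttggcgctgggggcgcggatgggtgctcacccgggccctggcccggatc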

How the data were processed

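The authors sequenced 10x Genomics libraries and deposited, per library, a table of UMI counts (genes by cell barcodes) mapped to GRCm38, with no further normalization. Gene symbols were read from the row names, and rows of 1 symbol were summed. Cells with at least 200 genes and at most 20% mitochondrial UMIs were kept. CD8 T cells needed at least 1 Cd3 and 2 Cd8 UMIs, NK cells at least 2 of Ncr1 and Klrb1c, B cells at least 2 of Cd79a, Cd79b and Ms4a1, and macrophages at least 3 of C1qa, C1qb and C1qc and 1 of Csf1r. Each gate also required 0 UMIs of some genes of other cell types (of Cd3d, Cd3e, Cd3g, Cd4, Cd8b1, Ncr1, Cd79a and Csf1r), and other markers could remain. No doublet caller was run, so doublets were limited by these rules only. Ighm and Zfp683 had no row.

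UMIs were summed per library and population and fitted over all genes with edgeR 4.0.16 (quasi-likelihood, TMM, filterByExpr) in R 4.3.3, with condition or library as an additive term and Benjamini-Hochberg adjustment over all genes tested. Levels are CPM with exact Poisson intervals, shares have exact Clopper-Pearson intervals in the tables, and thinning drew 2000 UMIs per cell with seed 1. Ratios between conditions used a minimum of 50 UMIs and have conditional exact intervals. Depth per library is given with the results, and all intervals cover counting error only. Alternatives were DESeq2 1.42.0, library totals, no filter on low counts, no condition term, stricter gates, all deposited cells, cells above the 95th percentile of UMIs left out, thinned cells, a minimum of 200 UMIs, Havcr2-gated cells, centring on the median of all genes, and each condition left out in turn. Python 3.11.15, numpy 2.4.6, scipy 1.17.1, pandas 2.3.3 and matplotlib 3.10.9 did the rest. The 8 factors and the gene lists were chosen with earlier results of these data known. Genes named were the factors, their paralogs, the 2 genes of smallest p per list and direction in 3 comparisons, and the 2 genes most alike to each factor. A withheld gene is not reported here.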

Additional observations from a re-analysis of the deposited data

Results flagged for a closer look

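In 80 groups of 4 libraries, 5 held a library far from the other 3, and chance flags about 1 in 20 such groups. Bhlhe40 in tumor CD8 T cells of the CD8 sort was 1104.2 CPM under anti-PD1 in Aire+/+ mice, with 940.1 the next. Eomes in splenic CD8 T cells of the CD45 sort was 86.7 CPM under anti-PD1 in Aire-/- mice, from 97 UMIs, with 48.6 the next. In Ccl5-gated splenic cells, Zeb2 was 58.4 CPM under isotype in Aire-/- mice, with 26.4 the next, and Batf was 53.9 CPM under anti-PD1 in Aire-/- mice, with 43.8 the next. Bhlhe40 in Tcf7-gated tumor cells was 435.7 CPM under isotype in Aire+/+ mice, and the nearest library had 553.3.

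All 8 factors differed between NK and CD8 T cells in their step from spleen to tumor, by a test of the difference itself (edgeR quasi-likelihood, Benjamini-Hochberg over all genes). On the log2 scale, NK minus CD8 T cells, the step differed by -3.50 for Tbx21 (adjusted p = 4.99e-18), 0.95 for Eomes (0.00536), -6.08 for Prdm1 (7.83e-11) and -2.57 for Id2 (3.23e-20). It differed by -5.85 for Zeb2 (2.22e-11), -0.89 for Tox (0.0306), -1.33 for Batf (0.00235) and -4.46 for Bhlhe40 (1.23e-15). The NK step was the lower in 4 of 4 conditions for 7 factors and the higher in 3 of 4 for Eomes. Of all genes tested, 12.6% were called lower and 11.3% higher. The Tox call was lost under 6 other settings, the Eomes call with library totals or without the Aire-/- anti-PD1 libraries, and the Batf call with thinned cells. Prdm1, Zeb2 and Bhlhe40 had few UMIs in splenic CD8 T cells, so their sizes and p rest on few counts.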

How the results depend on the processing

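Of 800 values of the factors under other settings of the tests, 752 kept direction and side of the threshold, 27 lost the call, 9 gained one and 12 turned sign. Of 490 ratios between conditions, 437 stayed within their interval and 53 moved. Among counts of called genes 177 of 206 stayed within 1.5 times, and among percents of genes past the fold 52 of 72 did. Of 192 shares of cells, 167 moved with thinning, which leaves fewer UMIs. Few splenic NK cells, few UMIs of Prdm1, Zeb2 and Bhlhe40 in the spleen and 1 library per condition limit what these data can show.

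With thinned cells, genes called higher and lower were 797 and 772 for tumor against splenic CD8 T cells of the CD45 sort, 409 and 339 for NK cells, and 1987 and 1832 for tumor against Ccl5-gated splenic cells. They were 1035 and 867 for Ccl5-gated against naive-gated cells, 552 and 606 for Havcr2-gated against Tcf7-gated cells, 345 and 380 for tumor NK against CD8 T cells, 511 and 536 for the splenic counterpart, and 356 and 322 for the difference of tissue steps. With library totals they were 875 and 2637 for NK cells by tissue, 2643 and 551 for splenic NK against CD8 T cells, and 509 and 2809 for the difference of tissue steps. DESeq2 called 1314 lower for the CD45 sort by tissue, 778 lower for NK cells by tissue, 671 lower for Ccl5-gated against naive-gated cells, 738 higher and 793 lower for tumor NK against CD8 T cells, and 622 and 626 for the splenic counterpart.

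Signs turned for Id2 in NK cells by tissue (-0.23, library totals) and for Tox against Ccl5-gated cells (0.02 with DESeq2, 0.02 with library totals, 0.05 without filter, 0.02 with stricter gates, and -0.11 to 0.05 with a condition left out). Thinned cells turned Tox between tumor gates (0.57) and Bhlhe40 (0.06) and Zeb2 (0.84) between tumor NK and CD8 T cells, and library totals turned Batf (0.18) and Tox (0.27) between splenic NK and CD8 T cells.

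With a minimum of 200 UMIs, fewer genes of low counts remained, and in the order of contrasts used above the percent past 1.5-fold was 2.21, 2.41, 1.65 and 1.14 in tumor CD8 T cells of the CD8 sort and 3.59, 3.65, 5.02 and 2.99 in those of the CD45 sort. It was 4.25, 6.61, 3.49 and 2.68 in tumor NK cells and 3.42, 2.42, 0.708 and 0.862 in splenic CD8 T cells. Thinned cells gave 5.32 for anti-PD1 in Aire-/- mice in the CD8 sort, 15 for genotype under anti-PD1 and 13.5 for anti-PD1 in Aire-/- mice in the CD45 sort, and 14.9 for anti-PD1 in Aire+/+ mice in NK cells. Except where fewer genes or UMIs were left by construction, the cause was not tested.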
